A study of Mus musculus with 6 samples.

Results

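The genes described here are the 50 whose symbol starts with Psm, one of the letters a to g and a digit, out of 16533 genes counted in ligated mouse veins. The name rule takes in the subunits of the proteasome, its activators, its assembly factors and a few genes that only share the name. All 50 passed the filter on low counts. Of these, 36 are subunits: 14 of the 20S core (Psma1 to Psma7 and Psmb1 to Psmb7), 17 of the 19S regulator and the 5 of the immunoproteasome group, Psmb8, Psmb9, Psmb10, Psme1 and Psme2. The other 14 are assembly factors, an inhibitor, other activators, a copy gene and bearers of the name.

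The inferior vena cava of mice was tied off for 24 h to model deep vein thrombosis, and RNA was taken from vein and thrombus together. Control mice were Stingf/f, with loxP sites around the gene of the DNA-sensing adaptor STING, and are called WT in the sample titles. The mKO mice were Stingf/f Lyzm-Cre+/-, so both groups carried the floxed allele and had the same ligation, and only mKO mice carried Cre, in 1 copy of the Lyz2 locus. Lyz2-Cre is active in neutrophils, monocytes and macrophages, so other cells of the vein keep the gene, and the labels give neither age nor sex. Each library was made from a pool of 3 thrombi, with 3 libraries a group, and a p-value here measures the spread between pools.

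The proteasome is the barrel-shaped protease that degrades proteins tagged with ubiquitin. Its 20S core is built of alpha and beta rings, and 3 of the beta subunits, encoded by Psmb5, Psmb6 and Psmb7, cut peptides. The 19S regulator caps the core, binds the ubiquitin chain and unfolds the substrate. Interferon-gamma and related signals induce Psmb8, Psmb9 and Psmb10, which take the places of Psmb5, Psmb6 and Psmb7 in newly assembled cores and favour peptides that MHC class I can present. Leukocytes carry such immunoproteasomes even without stimulation. Psme1 and Psme2 encode the alpha and beta chains of PA28, an interferon-inducible cap that opens the core without ubiquitin.

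Library totals ran from 158579864 to 180068483 counts, and every one of the 36 subunits had 1652 to 23813 counts in each library. Counting error was thus small beside the standard errors of their log2 fold changes, mKO over control. It was not small beside the spread of the control pools in every subunit, as in Psmc1. Levels are CPM, computed on library sizes scaled by the TMM method. Sting1, the targeted gene, had 25.1, 31.4 and 27.1 CPM in the control libraries and 22.7, 21.4 and 28.7 CPM in the mKO libraries, so its groups overlapped. That count covers the whole gene in every cell type and cannot check a deletion in myeloid cells. The tissue held myeloid transcripts, and the summed level of 6 neutrophil markers was 9471 to 15220 CPM in control and 13542 to 18676 CPM in mKO. In such bulk tissue, fewer cells of a type and less RNA per cell cannot be told apart.

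None of the 50 genes passed the test between genotypes. The test was edgeR's quasi-likelihood test with Benjamini-Hochberg adjustment over all genes and a threshold of 0.05. It called 0 of the 50 genes, and the background is 0% of the 16523 genes tested. At an unadjusted p under 0.05 there were also 0 of the 50. Of all genes 11.9% reached that level, made up of 6.26% of all genes lower in mKO and 5.6% higher. DESeq2, run as an alternative, called 0 of the 50 and 2.8% of all genes, 1.47% higher and 1.33% lower in mKO. The smallest unadjusted p among the members was 0.0652, for the lid subunit Psmd6, and its adjusted p by edgeR was 0.445. Log2 fold changes, mKO over control, lay between -0.25 and 0.28. They were negative for 38 of the 50 (76%), against 54.1% of all genes, and their median was -0.09, against -0.03 for all genes. The subunits varied together from pool to pool, as shown further on, so these 38 are not independent observations.

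**Figure D1:**
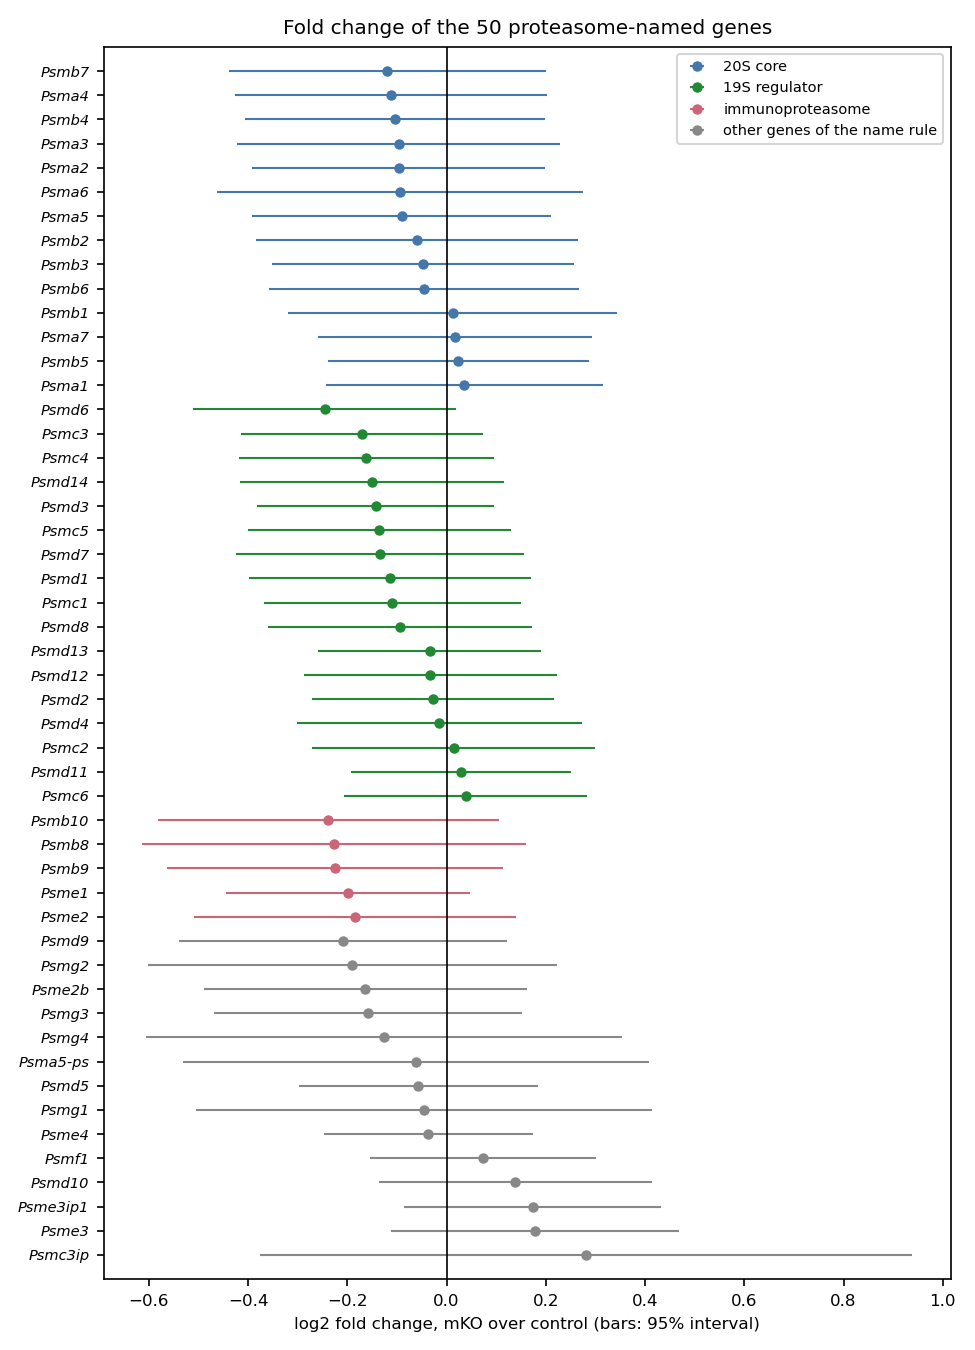
Log2 fold change of mKO over control for each of the 50 genes, ordered by class and by value, with the 95% confidence interval from edgeR as a bar. Every interval includes 0, and the 5 immunoproteasome genes lie together between -0.24 and -0.18.

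Transcript levels differed by role. Levels per kilobase divide CPM by the length of the principal transcript of each gene, so that genes can be compared with each other. Over the 6 libraries the median level was 51.7 CPM per kilobase for the 7 alpha subunits and 50.9 for the 7 standard beta subunits. The 6 ATPases of the regulator base, Psmc1 to Psmc6, which unfold the substrate, had a median of 31.0 CPM per kilobase, and the 8 lid subunits one of 22.3. The 3 inducible beta subunits were below every standard beta subunit, with 10.6 CPM per kilobase for Psmb9, 13.9 for Psmb10 and 22.9 for Psmb8. PA28 transcripts were nearer to the standard subunits, with 55.1 CPM per kilobase for Psme1 and 32.6 for Psme2. Assembly factors, which leave the finished particle, were lower again, at 3.92 to 8.54 CPM per kilobase. Summed over the 50 genes, the level was 1944 to 2277 CPM in a library.

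Within the classes, a few subunits stood far above their neighbours per kilobase. Psmd8, a lid subunit, was at 83.3 CPM per kilobase, where the lowest lid subunit, Psmd11, was at 19.6. Psmd4, the ubiquitin receptor of the base, was at 63.4, while Psmd1, a scaffold of the same base, was at 20.8. In the core, Psmb3 reached 76.5 and Psma7 63.3, and Psma3 was the lowest alpha subunit at 17.3. These orders depend on the transcript length chosen. Per kilobase of all exons joined, the medians were 21.98 CPM for the alpha subunits, 26.1 for the standard beta subunits, 23.8 for the ATPases and 12.7 for the lid, so the order of alpha subunits and ATPases turned. The lead among the beta subunits passed to Psmb5, at 49.6, and the lowest standard beta subunit, Psmb7 at 10.1, was then below Psmb8, at 11.02, and Psmb10, at 10.7. Psmb9, at 3.90, was then below assembly factors such as Psmg4, at 8.54, and Psmd10, at 7.05.

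The 14 standard core subunits had log2 fold changes of -0.12 to 0.04, with a median of -0.08, and in 10 of the 14 the value was negative. Adjusted p by edgeR was 0.717 or higher for each of them. For Psmb5, whose product has the chymotrypsin-like activity of the core, the control libraries had 41.9, 45.6 and 45.2 CPM and the mKO libraries 50.3, 43.0 and 41.6 CPM. The mKO pools thus lay on both sides of the controls, and the log2 fold change was 0.02 (SE 0.11, 95% interval -0.24 to 0.29). Psmb6, which encodes the caspase-like subunit, had 45.3, 51.4 and 52.2 CPM in control and 56.2, 44.8 and 43.3 CPM in mKO. Its log2 fold change was -0.05 (SE 0.13). Psmb7, the trypsin-like subunit, had the lowest fold change of the core, -0.12 (SE 0.14, 95% interval -0.44 to 0.20), from 35.1, 36.1 and 36.3 CPM in control and 39.8, 30.5 and 28.6 CPM in mKO. In all 3 catalytic genes mKO library 1 was the highest of the 6 and mKO library 3 the lowest.

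The alpha subunits form the outer rings and the gate of the core. Psma1 had the highest fold change of the core, 0.04 (SE 0.12), with 65.2, 66.5 and 60.4 CPM in control and 73.5, 63.5 and 60.0 CPM in mKO. Psma4 was the lowest of the alpha subunits, at -0.11 (SE 0.14), with 62.6, 69.3 and 62.6 CPM in control and 69.6, 52.1 and 58.2 CPM in mKO. The widest spread was in Psma6, with 64.6, 48.8 and 43.0 CPM in mKO against 55.0, 55.0 and 57.0 CPM in control.

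Among the 17 regulator subunits, 14 log2 fold changes were negative and 3 positive, with a median of -0.11 and a range of -0.25 to 0.04. The lowest belonged to Psmd6, a lid subunit, which had 29.3, 33.5 and 32.2 CPM in control and 30.1, 25.5 and 24.6 CPM in mKO. Its log2 fold change was -0.25 (SE 0.11, 95% interval -0.51 to 0.02), and its groups overlapped through mKO library 1. The highest belonged to Psmc6, an ATPase of the base, at 0.04 (SE 0.10), with 68.6, 67.0 and 61.3 CPM in control and 69.1, 68.2 and 64.9 CPM in mKO. Psmd11, a lid subunit, hardly varied, with 55.5, 55.7 and 54.2 CPM in control and 56.0, 57.8 and 55.0 CPM in mKO. Its log2 fold change was 0.03 (SE 0.10). Psmd4 (-0.01, SE 0.12) and Psmd1 (-0.11, SE 0.12) were the highest and the lowest of the 3 base subunits that are not ATPases.

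In 2 regulator genes all mKO libraries lay below all control libraries. Psmc3, an ATPase of the base, had 61.0, 62.4 and 65.8 CPM in control and 60.0, 54.9 and 53.4 CPM in mKO. Psmd3, a lid subunit, had 56.6, 55.9 and 54.7 CPM in control and 54.2, 50.1 and 47.2 CPM in mKO. In both, the nearest libraries of the groups were closer than the range within either group, and the fold changes were -0.17 (SE 0.10) and -0.14 (SE 0.10), with adjusted p of 0.534 and 0.579 by edgeR. Psmd3 was named for this separation after its values were seen. The third such gene among the 50 was Psme1, and in none did mKO lie above. Of all genes, 9.39% had every mKO library below every control library, and of the 50 members 3 did (6%).

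All 5 genes of the immunoproteasome group had log2 fold changes below 0, from -0.24 to -0.18, at a median of -0.23. None passed the test, with adjusted p of 0.487 to 0.592 by edgeR, and the 95% intervals together ran from -0.61 to 0.16. Psmb8, which replaces Psmb5, had 43.6, 41.3 and 35.6 CPM in control and 41.6, 27.3 and 34.1 CPM in mKO, means of 40.2 ± 4.12 and 34.3 ± 7.15 CPM (SD, n = 3 each). Its groups overlapped, and the log2 fold change was -0.23 (SE 0.17). Psmb9, which replaces Psmb6, had 16.6, 15.2 and 14.3 CPM in control and 15.4, 10.8 and 13.2 CPM in mKO. The log2 fold change was again -0.23 (SE 0.15), with overlap. Psmb10, which replaces Psmb7, had 19.1, 21.7 and 18.2 CPM in control and 19.7, 13.8 and 16.5 CPM in mKO, a log2 fold change of -0.24 (SE 0.15).

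**Figure D2:**
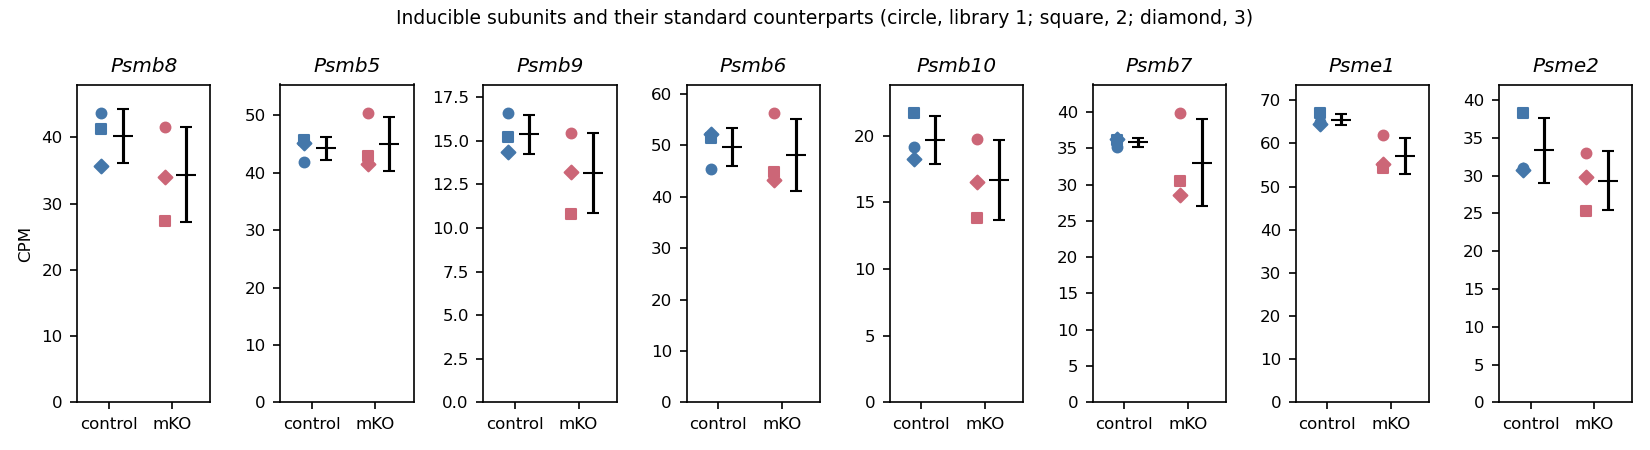
CPM of the 3 inducible catalytic subunits, each beside its standard counterpart, and of Psme1 and Psme2. Points are the 3 libraries of a group, with mean and SD beside them, and each panel has its own axis from 0; mKO library 2 is the lowest point in all 5 immunoproteasome genes, and mKO library 1 the highest in Psmb5, Psmb6 and Psmb7.

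Psme1 was the gene of the group whose libraries did not overlap, with 65.0, 66.9 and 64.6 CPM in control and 61.8, 54.3 and 55.1 CPM in mKO. The means were 65.5 ± 1.26 and 57.1 ± 4.13 CPM (SD, n = 3 each), and the log2 fold change was -0.20 (SE 0.11, 95% interval -0.44 to 0.05). Psme2, its partner in PA28, had 31.1, 38.2 and 30.7 CPM in control and 33.0, 25.3 and 29.8 CPM in mKO, with overlap and a log2 fold change of -0.18 (SE 0.14). Psme2b, a near copy of Psme2 elsewhere in the genome, had a log2 fold change of -0.16 (SE 0.14), at 8.41 to 10.2 CPM in control and 7.48 to 9.59 CPM in mKO. The sources used here do not say how reads matching both were counted, so the split between Psme2 and Psme2b is uncertain.

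The promoters of the 2 exchanged pairs whose windows could be read are shown because the pairs are regulated by different factors in textbook accounts: interferon signals for the inducible subunits, and the stress factors Nfe2l1 and Nfe2l2 for the standard ones. Each run is the 250 bases before the start of transcription, 5′ to 3′ on the gene's strand, from RefSeq in build GRCm38.p6. Capitals mark a match, on either strand, to one of 3 motifs: the interferon-stimulated response element, searched as GAAA, any 2 bases and GAAA, the STAT site, searched as TTCNNNGAA, and the antioxidant response element, searched as TGACNNNGC. The Psmb8 window is chr17:34197945-34198194 on the plus strand, that of Psmb5 chr14:54617996-54618245 on the minus strand, that of Psmb9 chr17:34187331-34187580 on the minus strand and that of Psmb6 chr11:70525107-70525356 on the plus strand.
Psmb8: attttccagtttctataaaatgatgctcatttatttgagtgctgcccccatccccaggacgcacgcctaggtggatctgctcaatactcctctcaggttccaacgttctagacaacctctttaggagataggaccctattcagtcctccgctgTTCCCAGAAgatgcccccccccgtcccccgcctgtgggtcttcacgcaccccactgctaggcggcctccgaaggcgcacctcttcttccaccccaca
Psmb5: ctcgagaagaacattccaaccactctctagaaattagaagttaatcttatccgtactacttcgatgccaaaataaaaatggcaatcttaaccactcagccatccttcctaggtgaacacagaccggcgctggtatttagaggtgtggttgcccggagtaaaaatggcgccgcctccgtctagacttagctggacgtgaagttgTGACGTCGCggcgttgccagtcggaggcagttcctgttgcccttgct
Psmb9: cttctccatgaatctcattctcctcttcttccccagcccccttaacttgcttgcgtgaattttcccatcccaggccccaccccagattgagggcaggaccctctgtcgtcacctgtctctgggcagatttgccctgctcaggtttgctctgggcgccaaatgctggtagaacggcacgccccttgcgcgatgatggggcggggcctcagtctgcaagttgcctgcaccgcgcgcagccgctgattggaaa
Psmb6: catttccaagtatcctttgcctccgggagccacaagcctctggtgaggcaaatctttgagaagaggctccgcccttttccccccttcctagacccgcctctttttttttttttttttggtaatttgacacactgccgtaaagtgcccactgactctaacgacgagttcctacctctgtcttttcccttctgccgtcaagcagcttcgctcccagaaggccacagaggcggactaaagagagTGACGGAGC

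The Psmb8 window held a STAT match, TTCCCAGAA, from 97 to 89 bases before the start. The Psmb5 window held an antioxidant match, TGACGTCGC, from 47 to 39 bases before the start, and the Psmb6 window one, TGACGGAGC, in the last 9 bases. The Psmb9 window held no match to the 3 motifs. It shares 225 bases with the promoter window of Tap1, the peptide transporter gene on the opposite strand. Windows were found for 42 of the 50 genes. Among the 6 windows of the 5 immunoproteasome genes, 0 held the interferon-stimulated element, 1 the STAT site and 0 the antioxidant element. Among the 12 core windows the counts were 1, 0 and 2, and among the 15 regulator windows 1, 0 and 2. Of all 32851 windows in the table, 2.98%, 7.02% and 10.2% held the 3 motifs. A match is a description of the letters, and short motifs of this kind occur in many promoters.

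Whether inducible subunits changed against the standard ones they replace was asked within each library, where no scaling between libraries enters. The log2 ratio of Psmb8 to Psmb5 counts was 0.06, -0.14 and -0.34 in control and -0.27, -0.65 and -0.29 in mKO. The groups overlapped, with a difference of -0.26 (exact permutation test, two-sided, p = 0.3). Psmb9 over Psmb6 gave -1.45, -1.75 and -1.86 in control and -1.86, -2.05 and -1.71 in mKO, a difference of -0.19 with an exact permutation p of 0.5. Psmb10 over Psmb7 gave -0.88, -0.74 and -0.99 in control and -1.01, -1.15 and -0.80 in mKO, a difference of -0.12 with an exact permutation p of 0.4. Adjusted over the 3 ratios each exact p was 0.5, and the smallest p that 3 libraries against 3 allow is 0.1. In all 3 ratios mKO library 2 had the lowest value of the 6.

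**Figure D3:**
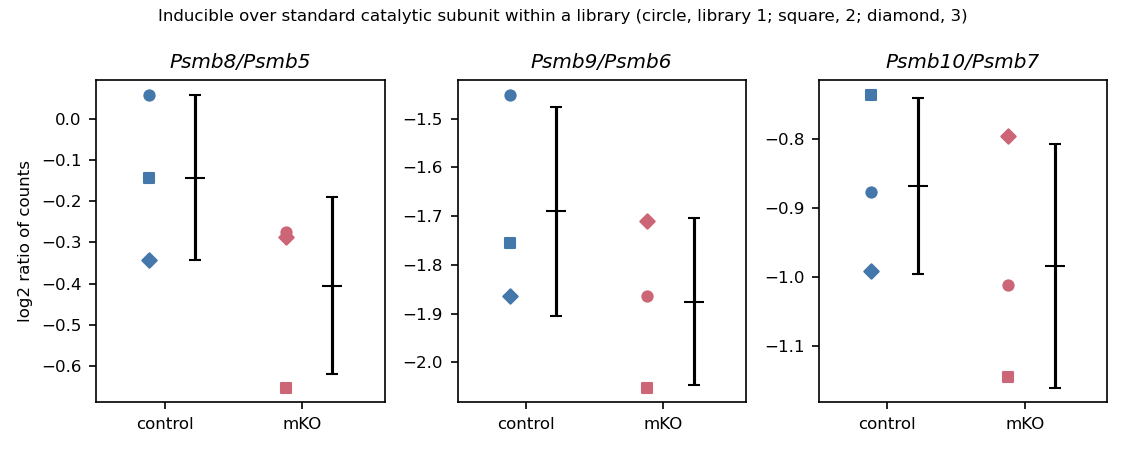
Log2 ratio of counts of each inducible catalytic subunit over the standard subunit it replaces, by library, with the mean and SD of each group beside the points. The groups overlap in all 3 panels, and mKO library 2, the square, is the lowest point in each.

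Per kilobase, the inducible gene supplied a minority of each pair's transcript in control. Psmb8 made up 33.4% ± 3.09 of its pair, Psmb9 15.5% ± 1.98 and Psmb10 32.7% ± 1.95 (SD, n = 3 each). In mKO the shares were 29.5% ± 3.03, 13.9% ± 1.41 and 30.9% ± 2.62 (SD, n = 3 each). Per kilobase of joined exons the control shares came to 19.5%, 13.7% and 52.4%, so that only the minority shares of Psmb8 and Psmb9 hold under both lengths.

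Of the 14 members outside the 3 classes, none had groups that did not overlap, against 18.2% of all genes. Psme3, the gamma chain of a nuclear PA28 that interferon does not induce, had a log2 fold change of 0.18 (SE 0.12), opposite in sign to Psme1 and Psme2. It had 86.4, 76.0 and 81.2 CPM in control and 92.7, 100.8 and 82.2 CPM in mKO. Psme4, the large activator PA200, was at -0.04 (SE 0.09), with 40.0 to 40.4 CPM in control and 38.1 to 41.0 CPM in mKO. Psmf1, the inhibitor PI31, was at 0.07 (SE 0.10).

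The assembly chaperones of the core, Psmg1 to Psmg4, had 4 negative log2 fold changes, from -0.19 for Psmg2 to -0.04 for Psmg1. Those of the regulator base ranged from -0.21 (SE 0.14) for Psmd9 to 0.14 (SE 0.12) for Psmd10, which is also known as the oncoprotein gankyrin, with Psmd5 at -0.06. Bearers of the name that are no part of the particle were Psmc3ip, a meiotic recombination factor, at 0.28 (SE 0.28), Psme3ip1, which binds the product of Psme3, at 0.17 (SE 0.11), and the pseudogene Psma5-ps at -0.06 (SE 0.20). Psma5-ps may share reads with Psma5, and Psmc3ip was the least abundant member, at 0.742 to 1.38 CPM.

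The core subunits varied together from pool to pool within the mKO group. In mKO library 1 all 14 core subunits were above all 3 controls, as were 6 of 17 regulator subunits and 0 of 5 immunoproteasome genes, against 25.9% of all genes. In mKO library 3 all 14 core subunits were below all 3 controls, as were 12 of 17 regulator subunits and 5 of 5 immunoproteasome genes, against 31.9% of all genes. In mKO library 2 the counts were 11 of 14, 12 of 17 and 5 of 5, against 35.8%. These positions were looked at after the values had been seen. Genes of 1 complex share their pool, so each count describes these libraries and carries no test.

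**Figure D4:**
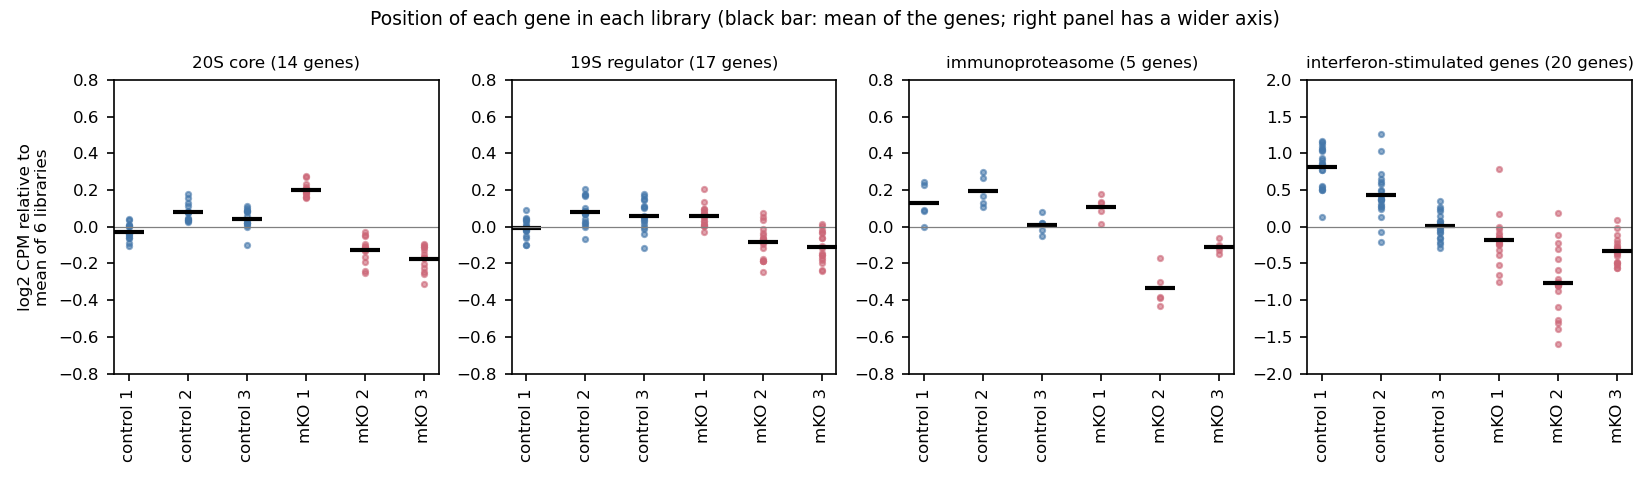
Log2 CPM of each gene relative to its mean over the 6 libraries, by library, for the 3 proteasome classes and for 20 interferon-stimulated genes, whose panel has a wider axis. Points are genes and black bars their mean; in the core panel all genes of mKO library 1 lie highest, and in the immunoproteasome panel all genes of mKO library 2 lie lowest.

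The mean of the 14 core subunits, as log2 CPM relative to the 6 libraries, was -0.03, 0.08 and 0.04 in control and 0.20, -0.13 and -0.17 in mKO. The 17 regulator subunits followed with a smaller span, -0.01, 0.08 and 0.06 in control and 0.06, -0.08 and -0.11 in mKO. For the 5 immunoproteasome genes the values were 0.13, 0.19 and 0.01 in control and 0.11, -0.33 and -0.11 in mKO. On the TMM scale the lowest pool thus differed by class. Each of the 5 immunoproteasome genes was lowest in mKO library 2, while 11 of the 14 core subunits were lowest in mKO library 3.

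The spread within a group also differed. The median SD of log2 CPM among the core subunits was 0.0692 in control and 0.207 in mKO, while over all genes it was 0.198 and 0.207. For regulator subunits it was 0.0565 in control and 0.115 in mKO, and for the immunoproteasome genes 0.128 and 0.258. Control pools were thus closer together for core and regulator subunits than for the median gene. That median includes genes with low counts, and genes matched to the subunits for level were not compared. No test of these spreads was made.

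The scaling of the libraries enters these positions. With total counts in place of TMM, the median of all genes shifted by 0.14 in control library 2 and by -0.14 in mKO library 2, and mKO library 1 was above all controls for 9 of the 14 core subunits and 1 of the 17 regulator subunits (22.4% of all genes). On that scale mKO library 3 was below all controls for 3 of the 5 immunoproteasome genes and 12 of the 14 core subunits (29.1% of all genes). There mKO library 2 was below all controls for 14 of 14 core, 15 of 17 regulator and 5 of 5 immunoproteasome genes (49.8% of all genes). Most core subunits were then lowest in mKO library 2, so the difference between classes in the lowest pool depends on the scaling. Summed markers of monocytes and macrophages were 844, 730 and 666 CPM in mKO libraries 1, 2 and 3 and 582 to 660 CPM in control. Skeletal muscle markers summed to 164.6 CPM in mKO library 3, and at most 45.1 CPM in any other library. Their part in the positions of the core subunits was not tested.

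Of the 6 libraries, leaving out mKO library 1 moved these counts most. Both other mKO libraries were below all 3 controls for 11 of 14 core subunits, 11 of 17 regulator subunits and 5 of 5 immunoproteasome genes, and for 31 of the 50 members in all, against 17.7% of all genes. Without that library the median log2 fold change was -0.20 for the core, -0.14 for the regulator and -0.35 for the immunoproteasome genes. Still 0 members passed edgeR's test, with a smallest adjusted p of 0.417. At an unadjusted p under 0.05 there were 6 of 50, near the 11.5% of all genes in the same fit; these were Psma6, Psmb7, Psmb10, Psmd6, Psmd9 and Psme1, named after their values were seen. Without mKO library 2 the immunoproteasome median was -0.10, and without mKO library 3 the core median was 0.02.

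The genes around the proteasome were taken from lists chosen for the pathway, with earlier results of these data known. By edgeR 0 genes passed in any of these lists. Among 16 genes of proteasome partners, which shuttle substrates, remove ubiquitin or adapt the complex to stress, the median log2 fold change was 0.07, and 3 had all mKO libraries above all controls, as 8.76% of all genes did. Zfand2a, a stress-induced zinc finger protein that binds the 19S regulator, had 39.7, 27.4 and 33.8 CPM in control and 48.7, 58.2 and 60.8 CPM in mKO. The log2 fold change of 0.73 (SE 0.16) had an adjusted p of 0.221 by edgeR and 0.00729 by DESeq2. The deubiquitinase Uchl5, at 0.17 (SE 0.09), was also among the 3.

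Transcription of proteasome genes is raised by Nfe2l1, which Ddi2 and Ngly1 process, and by Nfe2l2. Of the 7 genes of this control list, 5 had a positive log2 fold change, with a median of 0.07. In 1 of the 7 all mKO libraries were above all controls, against 8.76% of all genes. This was Nfe2l2, with 138.9, 101.7 and 107.8 CPM in control and 153.1, 174.2 and 148.9 CPM in mKO. The log2 fold change of 0.45 (SE 0.16) did not pass by edgeR, at an adjusted p of 0.356. Nfe2l1 was at 0.07 (SE 0.12), Ddi2 at 0.16 (SE 0.17) and Ngly1 at 0.15 (SE 0.13). The ubiquitin list of 6 genes had a median of 0.15. In 2 of the 6 all mKO libraries were above all controls, against 8.76% of all genes. Ubb, a polyubiquitin gene at 0.33 (SE 0.18), was among these 2. Of the 31 core and regulator subunits, 24 (77.4%) had a negative log2 fold change, against 54.1% of all genes. These subunits varied together from pool to pool, so the 24 are not independent observations. A relation between them and the genes of these 2 lists was not tested.

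Interferon-stimulated genes share their inducers with the immunoproteasome. Log2 fold changes were below 0 for 20 of 20 listed interferon-stimulated genes, at a median of -0.89, and in 14 every mKO library was below every control, against 9.39% of all genes. DESeq2 called 8 of the 20 lower, against 1.33% of all genes. Their mean by library was 0.82, 0.43 and 0.01 in control and -0.18, -0.76 and -0.32 in mKO, lowest in mKO library 2, as were the 5 immunoproteasome genes. In control the 2 sets did not follow the same order: the interferon-stimulated mean was highest in library 1 and the immunoproteasome mean in library 2.

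Among 9 genes of interferon-gamma signalling the median was 0.16, with 2 genes separated in each direction. Of all genes, 9.39% were separated with mKO lower and 8.76% with mKO higher. Nlrc5, the transactivator of MHC class I, Tap1 and Psmb9, was at -0.59 (SE 0.15). Nlrc5 had 22.6, 19.04 and 16.8 CPM in control and 12.7, 11.4 and 14.7 CPM in mKO, with an adjusted p of 0.246 by edgeR and 0.0465 by DESeq2. The receptor chain Ifngr2 was higher, at 0.33 (SE 0.11), and Irf1, a further inducer of immunoproteasome genes, was at -0.01 (SE 0.16).

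The next steps of class I presentation are peptide transport and loading. Of 11 genes on this list 8 were below 0 on the log2 scale, at a median of -0.13, and in 4 all mKO libraries were below all controls, against 9.39% of all genes. In 1, the chaperone gene Canx, at 0.18, all mKO libraries were above. Tap1 had 58.1, 44.1 and 45.2 CPM in control and 36.1, 27.7 and 34.7 CPM in mKO, a log2 fold change of -0.58 (SE 0.15), and by edgeR the adjusted p was 0.275. Psmb9, from whose promoter window Tap1 is read in the opposite direction, was at -0.23 with overlap. B2m, the light chain of class I, was at -0.70 (SE 0.20) and the heavy chain H2-K1 at -0.37 (SE 0.13), with adjusted p of 0.0136 and 0.00979 by DESeq2 and 0.305 and 0.344 by edgeR. Whether these genes differed more than the immunoproteasome genes was not tested.

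**Figure D5:**
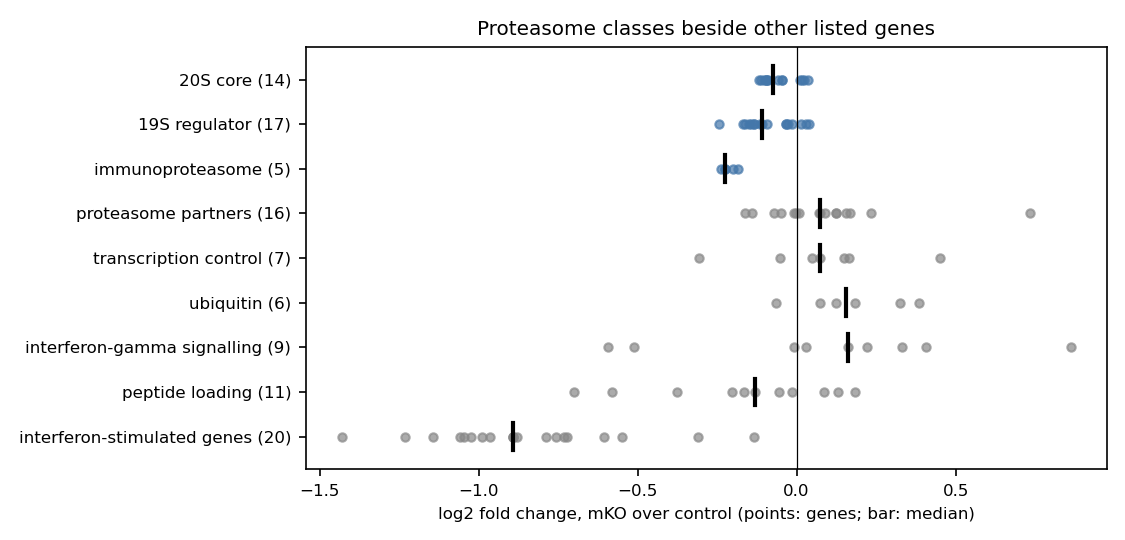
Log2 fold change of mKO over control for the genes of the 3 proteasome classes and of 6 lists of related genes, with the number of genes in brackets and a bar at each median. The 3 proteasome classes lie close to 0, with medians of -0.08, -0.11 and -0.23, and the interferon-stimulated genes lie farthest left, at -0.89.

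Several lists of cell type markers moved between the groups as well, and their part in the values above was not tested. Summed markers of endothelium were 818 to 944 CPM in control and 603 to 742 CPM in mKO, with 6 of 6 markers at a negative log2 fold change. Those of monocytes and macrophages were 582 to 660 CPM in control and 666 to 844 CPM in mKO, with 6 of 7 positive. In 2 of the 7 all mKO libraries were above all controls, against 8.76% of all genes. The markers did not move together within a pool. Adgre1, C1qa and C1qb were highest in mKO library 1 and below every control in mKO library 2. Adgre1 and C1qb were below every control in mKO library 3 too. Csf1r and Cd68, at 231.1 and 214.9 CPM in mKO library 2, were above every control there, and Ccr2 and Ly6c2 lay within the control range. Leukocyte markers summed to 3319 to 4792 CPM in control and 4682 to 6312 CPM in mKO, overlapping, with 7 of 7 positive. Markers of T and NK cells, which make interferon-gamma, summed to 16.2 to 32.3 CPM in control and 13.9 to 18.1 CPM in mKO, with 8 of 8 negative. Smooth muscle markers summed to 1084 to 2814 CPM in control and 581 to 1321 CPM in mKO, with 4 of 4 negative, and platelet markers to 3601 to 5347 CPM and 2730 to 4051 CPM, also with 4 of 4 negative. Of the 4 erythroid markers 4 were positive, at a median log2 fold change of 0.80. In 3 of them all mKO libraries were above all controls, against 8.76% of all genes. Adipocyte markers summed to 118 to 146 CPM in control and 62.3 to 111 CPM in mKO, with 3 of 3 negative. B cell markers summed to 17.4 to 44.7 CPM in control and 19.8 to 32.6 CPM in mKO. Their median log2 fold change was -0.09, with standard errors up to 0.46, so a change in either direction could be missed. Dendritic markers were mixed, with 3 positive and 2 negative. All these markers were above 0 in every library.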

How the data were processed

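For each of the 6 libraries the authors deposited a table of raw counts by gene, whole numbers with no normalization. Oligo(dT)-selected RNA was sequenced in paired-end reads, per the labels' protocols. The submitters' processing notes name the build GRCm39 and, among tools, HISAT2 2.1.0 and featureCounts 2.0.1, besides Trim Galore 0.4.0 and FastQC 0.11.8. Annotation release, strand setting and treatment of multiply matching reads are not given in the sources used, so copies and overlapping genes are uncertain. The genotype in the labels gave the groups.

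From these counts, edgeR 4.0.16 in R 4.3.3 (TMM, filterByExpr, robust quasi-likelihood F-test) was fitted to all genes, with Benjamini-Hochberg adjustment over 16523 genes and a threshold of 0.05. CPM and log2 fold changes are from this fit, with 95% intervals from its standard errors. DESeq2 1.42.0, limma voom 3.58.1, other scalings and filters, a replicate block and leaving out each library were alternatives. The test was checked on data simulated from these counts. There edgeR recovered 46% of 2-fold and 90% of 4-fold changes, and 15 of its 151 calls were unchanged genes. DESeq2 recovered 62% and 92%, and 73 of its 227 calls were unchanged genes. With no gene changed, edgeR called 1 gene and DESeq2 19. Changes smaller than 2-fold, such as those of the members, were not simulated. Gene lengths, matched by identifier, are from an earlier mouse annotation and used for levels only, and joined exons were added as an alternative after seeing the data, as was the count of separated genes without each library. Chromosome positions are those of the RefSeq promoter table. No 2 libraries of the same group agreed within sampling noise.

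Members and lists were chosen with earlier results of these data known. Named members are the immunoproteasome genes and their counterparts, the highest and lowest fold change of each role, any with an unadjusted p under 0.05 and all that are no subunit; from each pathway list the 3 smallest p were taken. Some genes that this rule would name are not reported here. Psmd3, Psma6, Nfe2l1, Irf1, Canx and the genes singled out by level are named outside this rule.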

Additional observations from a re-analysis of the deposited data

How the results depend on the processing

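The count of 0 members called by edgeR held under all 14 alternatives tried on it, and the smallest adjusted p of a named member in any of them was 0.354. Over all genes DESeq2 called 462, and leaving out each library in turn gave 0 to 7 (7 without control library 1, 2 without control library 3, 4 without mKO library 3). The class medians stayed within the spread between replicates in every alternative: leaving out libraries gave -0.35 to -0.10 for the immunoproteasome genes, -0.20 to 0.02 for the core and -0.14 to -0.06 for the regulator.

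Of 373 member values under alternatives 19 changed sign, all of genes whose log2 fold change was at most 0.0612 from 0. Psmd4 became 0.0068 with RLE size factors and 0.0069 with DESeq2, Psmb5 -0.0015 with upper-quartile scaling and -0.0069 with a filter of 10 CPM in 3 libraries, and Psmd11 -0.0042 with that filter. Leaving out libraries gave -0.061 to 0.077 for Psmb5, -0.15 to 0.13 for Psmg1, -0.0083 to 0.071 for Psmc6, -0.067 to 0.078 for Psmd4, -0.049 to 0.097 for Psma1, -0.17 to 0.0067 for Psma5-ps and -0.17 to 0.025 for Psmb6. Members whose groups did not overlap numbered 4 to 31 with a library left out: 12 without control library 1 (36.3% of all genes did not overlap), 6 without control library 3 (27.2%), 31 without mKO library 1 (34.2%) and 9 without mKO library 3 (27.6%). Only the 31 of 50 are above the share of all genes.

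Replicate numbers gave no pairing: deviations of libraries with the same number correlated at -0.14, -0.15 and -0.27. With the number as a block edgeR called 0 genes, 1299 had an unadjusted p under 0.05 against 1960 without the block, and the medians were -0.24, -0.09 and -0.11 for the immunoproteasome, core and regulator genes. Depth limits none of the subunit values, and 3 pools a group limit all tests.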
